A study of Mus musculus with 10 samples.

Results

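Calcineurin and the calmodulin-dependent kinases carry opposite chemical signals from the same calcium rise, and 10 of their genes were followed here in intratelencephalic projection neurons (IT-PNs) of layer 5 of the mouse primary motor cortex (M1). The genes were chosen by name, as *Ppp3ca*, *Ppp3cb* and *Ppp3r1* for calcineurin, *Camk2a*, *Camk2b*, *Camk2d* and *Camk2g* for CaMKII, and *Camk4*, *Camk1d* and *Camkk2* for the kinase cascade. All 10 were present among the 24453 genes of the count table. The study asked how the transcriptomes of 2 IT-PN types differ. All animals were male *Fezf2-Gfp* mice, hemizygous for the transgene (Zfp312-EGFP)CO61GsatMmnc on a Swiss Webster background, in which regulatory elements of *Fezf2* drive GFP. The retrograde tracer cholera toxin subunit B (CTB), conjugated to Alexa 647, was placed in the left M1 at postnatal day 23 to 25, and cells were taken from the right hemisphere at postnatal day 28 to 32. Cells with GFP and CTB were sorted as *Fezf2+ve* IT-PNs, and cells with CTB only as *Fezf2−ve* IT-PNs, so that the reporter and not *Fezf2* RNA defined the types. By RT-PCR the paper detected *Fezf2* RNA in the sorted cells with GFP and CTB and not in those with CTB only (n = 5 each). Each of 5 animals gave 1 library per type, 10 libraries in all, and libraries are numbered by animal.

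When calcium enters a neuron it binds calmodulin, which then switches on both a phosphatase and a family of kinases. Calcineurin, the phosphatase, joins a catalytic A subunit to a regulatory B subunit that binds calcium itself, and it removes phosphate from NFAT transcription factors and from proteins of the synapse. CaMKII is an abundant kinase of excitatory synapses with a central part in synaptic plasticity, while CaMKK2 activates CaMKI and CaMKIV, the latter a nuclear kinase that acts on CREB.

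Gene reads numbered 107643 to 203379 per *Fezf2+ve* library and 89138 to 217738 per *Fezf2−ve* library. A library therefore gave 4.59 to 11.2 CPM (gene reads scaled to a common library total) for each single read, and 3 reads stood for 13.8 to 33.7 CPM. The 10 genes together drew 100, 102, 36, 22 and 80 reads in *Fezf2+ve* libraries 1 to 5, against 56, 29, 603, 142 and 46 in their *Fezf2−ve* libraries. *Fezf2−ve* library 3 was high, with 529 of its 603 reads on *Camk2a*, and the types overlapped. Of the 100 values for 10 genes in 10 libraries, 21 were 0 and only 38 were above 3 reads. Reads made by PCR and not collapsed by a molecular identifier are no independent sample of molecules, so intervals and floors given here cover counting error only. *Fezf2+ve* library 1 stood apart, with 46.7% of its reads on ERCC spike-in RNAs and 29.8% of its gene reads on *Sema6a*.

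Markers of neurons and of excitatory neurons, to which the labelled cells belong, were weakly represented. Of 5 neuronal markers (*Snap25*, *Syt1*, *Rbfox3*, *Map2* and *Nefl*), *Nefl* was at 0 in all libraries and *Map2* was the most abundant with 112 reads. Their summed level was 344, 438, 173, 624 and 73.5 CPM in *Fezf2+ve* libraries 1 to 5, and 65.9, 86.2, 82.6, 38.7 and 72.2 CPM in the *Fezf2−ve* libraries. Only *Fezf2+ve* library 5 lay within the *Fezf2−ve* range. Markers of excitatory neurons had 45 reads over the 10 libraries, of which *Slc17a7* had 11. Markers of layer 5 subcerebral neurons, which are not the labelled projection type, had 51 reads. Of these 49 were on *Ldb2*, with *Crym* and *Fam84b* at 0 and *Fezf2* at 1 read. Markers of inhibitory neurons had 11 reads, with *Slc32a1*, *Pvalb* and *Vip* at 0. The identity of the sorted cells as excitatory layer 5 neurons could therefore not be read from the neuronal and excitatory markers at this depth. The subcerebral and inhibitory lists stand for other types than the labelled one.

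Among the marker lists, only the microglial markers gave sums that separated the types without overlap. The 12 genes summed to 262, 118, 76.0, 129 and 153 CPM in the *Fezf2+ve* libraries, and to 5820, 3900, 5880, 3010 and 4850 CPM in the *Fezf2−ve* libraries of the same animals. Every *Fezf2−ve* library was above every *Fezf2+ve* library. All 12 genes were detected and had a negative log2 fold change, 10 of them with an unadjusted p under 0.05 (edgeR quasi-likelihood test), and *Ctss* was the most abundant with 817 reads. *Tyrobp* and *Aif1* had 1 *Fezf2+ve* read each, and *C1qa* and *C1qb* 2 each. They could not pass the filter of 10 CPM in 2 libraries without the *Fezf2−ve* type, which limits what their p can show. The paper already reports *C1q*, *Csf1r* and *Tyrobp* as higher in *Fezf2−ve* IT-PNs from these libraries. The 6 haemoglobin genes are near-identical copies that share reads, and they had equal totals in pairs. *Hbb-bs* and *Hbb-b1* had 410 reads each, *Hbb-bt* and *Hbb-b2* 368 each, and *Hba-a1* and *Hba-a2* 249 each. Their sums may therefore count a read in both genes of a pair. Sums were 1460, 131, 13.8, 0.0 and 0.0 CPM in *Fezf2+ve* against 6030, 4310, 301, 774 and 11.1 CPM in *Fezf2−ve* libraries 1 to 5. These sums were higher in the *Fezf2−ve* library of each animal, with overlapping ranges. All 6 genes had an unadjusted p under 0.05 (edgeR quasi-likelihood test), but as paired copies they are not 6 separate tests. Of all 7409 genes tested, 168 had a negative log2 fold change with such a p. Astrocyte markers, led by *Slc1a2* and with *Gfap* at 0, lay at 332 to 5150 CPM in *Fezf2+ve* and at 27.8 to 6190 CPM in *Fezf2−ve* libraries, where *Fezf2+ve* library 2 and *Fezf2−ve* library 4 held 788 of 1223 and 800 of 914 reads. Markers of oligodendrocytes lay at 188 to 7070 CPM against 186 to 1420 CPM, with 1081 of the 1307 *Fezf2+ve* reads in library 2 and 280 of the 465 *Fezf2−ve* reads in library 1. Those of their precursors, led by *Pdgfra*, lay at 94.1 to 1510 CPM against 124 to 1350 CPM, with 231 of 543 reads in *Fezf2+ve* library 2 and 243 of 456 in *Fezf2−ve* library 5. Astrocyte sums were higher in the *Fezf2+ve* library of animals 1, 2, 3 and 5. They were 525, 5150, 332 and 423 against 406, 155, 53.5 and 27.8 CPM there, and 2990 against 6190 CPM in animal 4. Oligodendrocyte sums were higher in animals 2 to 5, barely so in animal 4, and lower in animal 1. Precursor sums were higher in animals 1 and 2 only. The types overlapped in each list. No direction is supported, since 0 of these markers had an unadjusted p under 0.05 (edgeR quasi-likelihood test). Endothelial markers had 22 and 21 reads, led by *Flt1*. Fewer cells of a type and less RNA per cell cannot be told apart in such libraries, and the part of other cells in the results below was not tested. The paper reads the microglial genes as expressed in the *Fezf2−ve* IT-PNs themselves. It cites the neuronal terms of its top expressed genes and published data on callosal and layer 5a neurons. Neither source of these reads was tested here.

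**Figure D1:**
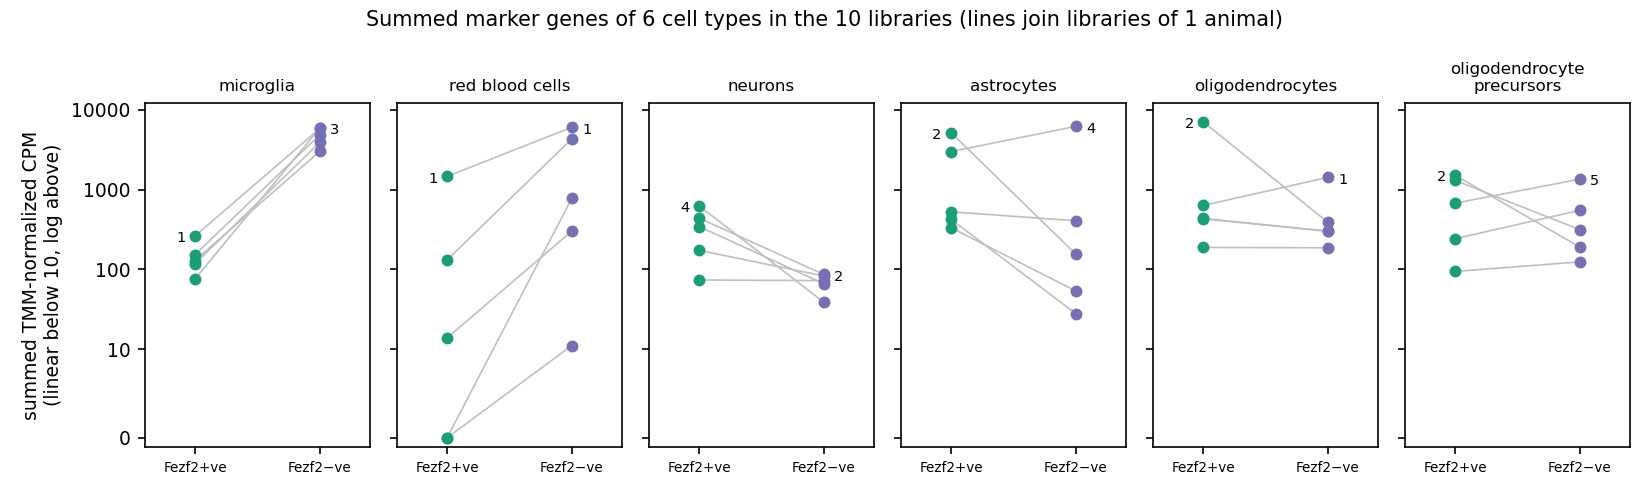
Summed TMM-normalized CPM of the marker genes of 6 cell types (vertical axis, linear below 10 and logarithmic above) in the *Fezf2+ve* and *Fezf2−ve* libraries, with lines joining both libraries of an animal and the animal of the highest library numbered. Microglial markers lay at 76.0 to 262 CPM in the *Fezf2+ve* and at 3010 to 5880 CPM in the *Fezf2−ve* libraries.

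Calcineurin B was the member with the smallest p, and its level was higher in the *Fezf2+ve* library of each animal. *Ppp3r1*, the gene of the regulatory subunit (ENSMUSG00000033953, plus strand of chromosome 11 of GRCm38, 17159263 to 17200375), drew 56, 73, 6, 2 and 30 reads in *Fezf2+ve* libraries 1 to 5, against 6, 3, 2, 2 and 1 in their *Fezf2−ve* libraries. *Fezf2+ve* libraries 1, 2 and 5 were far above every *Fezf2−ve* library, library 3 equalled the highest of them in reads, and library 4 lay within their range, so the types overlapped. Animal 4 had 2 reads in each library, and only normalization placed its *Fezf2+ve* library higher. On the scale of TMM-normalized log2(CPM + 1), the level averaged 7.06 ± 1.97 (SD, n = 5) for the *Fezf2+ve* type against 3.98 ± 0.93 (SD, n = 5) for the *Fezf2−ve* type, with the *Fezf2+ve* library higher in 5 of 5 animals. Such a consistent direction was found in 1.69% of the 7409 genes tested. The paper already lists *Ppp3r1*, in its EF-hand cluster, among the genes increased in *Fezf2+ve* IT-PNs. That result came from these same libraries, so the value here is no independent observation. *Wdr92*, which overlaps *Ppp3r1*, had 4 reads in all. Marker levels beside it gave no single pattern. *Ppp3r1* stood at 459, 477, 41.5, 23.5 and 184 CPM in *Fezf2+ve* libraries 1 to 5, and the summed markers of oligodendrocyte precursors at 1300, 1510, 242, 94.1 and 674 CPM. In *Fezf2−ve* libraries 1 to 5 *Ppp3r1* stood at 30.4, 25.9, 9.72, 15.5 and 5.55 CPM and these markers at 314, 190, 549, 124 and 1350 CPM. The libraries thus had the same order in both within the *Fezf2+ve* type, but in animals 3, 4 and 5 the precursor markers were lower in the *Fezf2+ve* library, and *Fezf2−ve* library 5 had the highest of the *Fezf2−ve* marker values and the lowest of *Ppp3r1*. Neuronal markers were higher in 4 of the 5 *Fezf2+ve* libraries than in any *Fezf2−ve* library, with their highest value, 624 CPM, in library 4, where *Ppp3r1* was lowest in that type. Oligodendrocyte markers stood at 631, 7070, 428, 188 and 435 CPM in *Fezf2+ve* libraries 1 to 5, also the order of *Ppp3r1* within that type. They were higher in the *Fezf2+ve* library of animals 2 to 5, but only by 188 against 186 CPM in animal 4. In animal 1 they were lower, at 631 against 1420 CPM. The part of any of these cell types in the *Ppp3r1* value was not tested.

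Blocked by animal, 0 of the 10 members were called, as 0 (0.0%) of the 7409 tested genes were called at an adjusted p of 0.1 or less by the edgeR quasi-likelihood test with Benjamini-Hochberg adjustment. At an unadjusted p under 0.05 stood 288 genes (3.89%) and 1 member, *Ppp3r1*. Expressed as *Fezf2+ve* over *Fezf2−ve*, its log2 fold change was 3.21 (standard error, SE, 1.19, unadjusted p = 0.0132, adjusted p = 0.998 by the same test). Without the block, edgeR called 279 genes (3.77%) and 1 member, again *Ppp3r1* (adjusted p = 0.0931, Benjamini-Hochberg). DESeq2 with the block called 98 genes (1.32%), and of the members *Ppp3r1* (adjusted p = 0.0876, Benjamini-Hochberg). It gave an adjusted p to 3 of the 9 members tested and to 1664 of the 7409 genes, and only these could be called. Simulated counts had the same dispersion for every gene, near that of these libraries, and no animal effect. On them DESeq2 called nearly as many unchanged as changed genes, and edgeR with the block missed the changed genes. These libraries are paired and their spread differs by gene. The simulation therefore cannot settle how far a DESeq2 call or the absence of an edgeR call can be relied on here. Over all alternatives the adjusted p of *Ppp3r1* ran from 0.083 to 1.0 by edgeR or DESeq2 with Benjamini-Hochberg adjustment. Without animal 1, whose *Fezf2+ve* library stood apart, the log2 fold change was 2.92 (unadjusted p = 0.0439, edgeR quasi-likelihood test).

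Both genes of catalytic subunits had few reads and log2 fold changes smaller than their SE. *Ppp3ca*, which encodes the alpha form, drew 0, 11, 3, 5 and 4 reads in *Fezf2+ve* libraries 1 to 5, against 6, 5, 21, 2 and 0 in their *Fezf2−ve* libraries. Either type held a library at 0, and their ranges overlapped almost wholly. The log2 fold change was 0.11 (SE 1.39), and it turned to -0.19, -0.51 and -0.77 without animal 2, 4 or 5 and to -0.12 without the block. *Ppp3cb*, which encodes the beta form, gave 0, 0, 1, 0 and 4 reads in *Fezf2+ve* libraries 1 to 5 against 0, 1, 3, 0 and 0 in *Fezf2−ve* libraries 1 to 5. With 9 reads in 4 libraries, its log2 fold change of 0.15 (SE 2.47) carried almost no information, and it was -1.45 without animal 5.

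The make-up of calcineurin reads was compared within libraries, where library size plays no part. *Ppp3r1* was already known to be higher in the *Fezf2+ve* libraries, so its share is a description. *Ppp3r1* held 100, 86.9, 60.0, 28.6 and 78.9% of the reads on *Ppp3r1*, *Ppp3ca* and *Ppp3cb* in *Fezf2+ve* libraries 1 to 5, and 50, 33.3, 7.69, 50 and 100% in the *Fezf2−ve* libraries. The *Fezf2+ve* share was higher in animals 1 to 3 and lower in animals 4 and 5. Sums were small, from 7 to 84 reads in *Fezf2+ve* and from 1 to 26 in *Fezf2−ve* libraries, and the value of *Fezf2−ve* library 5 rested on 1 read (exact 95% interval 2.5 to 100%). Means were 70.9% ± 27.7 (SD, n = 5) for the *Fezf2+ve* type and 48.2% ± 33.7 (SD, n = 5) for the *Fezf2−ve* type. This difference of 22.7 percentage points was within the spread of the animals (paired shares, two-sided exact permutation test, p = 0.25, and 0.063 is the lowest value possible with 5 animals). With reads pooled over libraries, the share was 167 of 195 reads (85.6%) for *Fezf2+ve* and 14 of 52 reads (26.9%) for *Fezf2−ve* IT-PNs, values in which the libraries with most calcineurin reads count most.

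**Figure D2:**
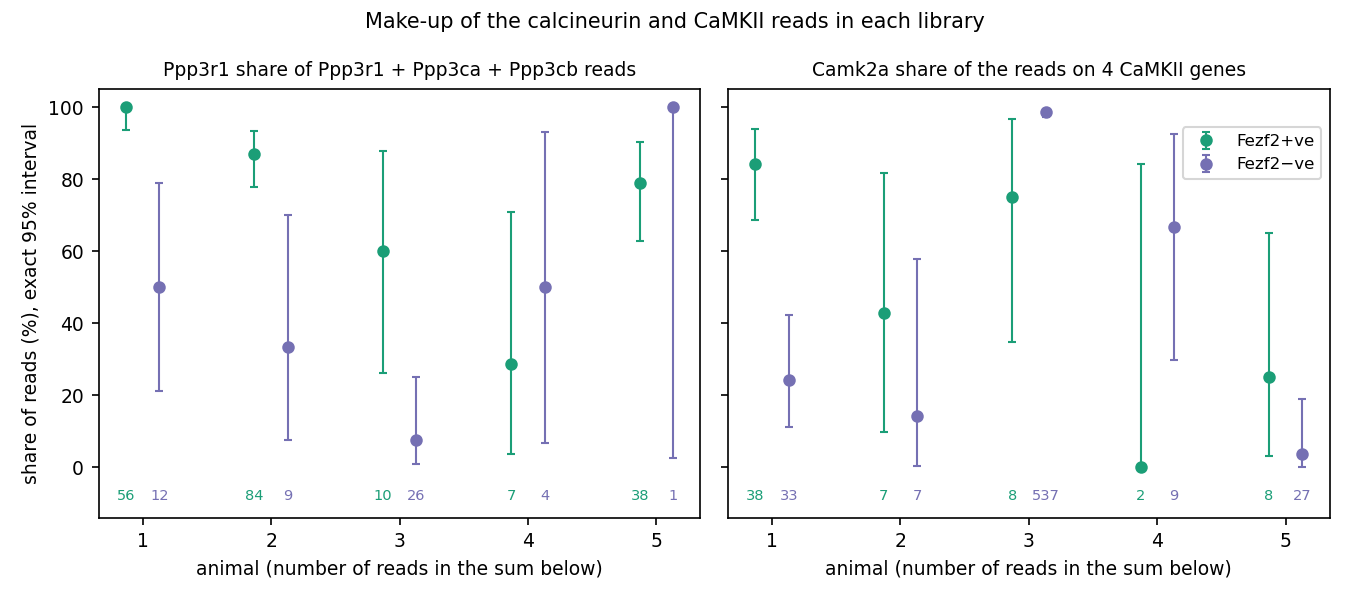
Share of *Ppp3r1* among the calcineurin reads (left) and of *Camk2a* among the CaMKII reads (right), in percent, for both libraries of each animal, with exact 95% binomial intervals and the number of reads in the sum printed below each point. Intervals are wide where a sum is small, as in *Fezf2−ve* library 5 with 1 calcineurin read.

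Among the CaMKII genes, *Camk2a* was dominated by 1 library. The gene encodes the alpha subunit, the main form of forebrain excitatory neurons, and drew 32, 3, 6, 0 and 2 reads in *Fezf2+ve* libraries 1 to 5, against 8, 1, 529, 6 and 1 in their *Fezf2−ve* libraries. *Fezf2−ve* library 3 alone held 90.0% of all its reads, and the other 9 libraries overlapped. That library also held 22 of the 45 reads on excitatory neuron markers, at 107 CPM against 0.0 to 45.8 CPM in the others. The part of excitatory neurons in the *Camk2a* value was not tested. The log2 fold change was -0.63 (SE 1.84) with all animals, 0.60 without animal 3 and 0.27 without animal 4, so its direction rested on single animals.

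*Camk2b*, which encodes the beta subunit that binds actin, leaned to the *Fezf2−ve* type. It gave 5, 2, 2, 2 and 1 reads in *Fezf2+ve* libraries 1 to 5 against 25, 5, 5, 3 and 24 in *Fezf2−ve* libraries 1 to 5. *Fezf2−ve* libraries 1 and 5 were high, and the others lay at or just above the *Fezf2+ve* reads, with overlapping ranges. Its level averaged 4.11 ± 0.96 (SD, n = 5) for the *Fezf2+ve* type against 5.76 ± 1.21 (SD, n = 5) for the *Fezf2−ve* type, and the *Fezf2−ve* library was higher in 4 of 5 animals. This gave a log2 fold change of -1.62 (SE 1.1, adjusted p = 0.998, edgeR quasi-likelihood test with Benjamini-Hochberg adjustment), which ranged from -2.05 to -1.14 when animals were omitted singly. Microglial marker levels were higher in all *Fezf2−ve* libraries, and of that type library 1 had the highest oligodendrocyte and library 5 the highest precursor markers. The part of these cells in the value was not tested.

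The delta and gamma subunits were hardly detected. *Camk2d*, for the delta form, had 4 reads in the *Fezf2+ve* and 4 in the *Fezf2−ve* libraries, and at most 3 in any library. Its log2 fold change was -0.26 (SE 1.66), but 0.21 without animal 3 and 0.10 without the block. *Camk2g*, for the gamma form, gave 1, 1, 0, 0 and 2 reads in *Fezf2+ve* libraries 1 to 5 against 0, 0, 2, 0 and 0 in *Fezf2−ve* libraries 1 to 5 and did not pass the filter of 10 CPM in 2 libraries. The ratio of its scaled reads was 2.48, with an exact 95% counting interval of 0.356 to 27.4, or 1.64 without *Fezf2+ve* library 5. Without *Fezf2−ve* library 3 the reads were 4 to 0 and gave no ratio, and no difference was detectable at this depth.

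*Camk2a* held 84.2, 42.9, 75.0, 0.0 and 25.0% of the CaMKII reads in *Fezf2+ve* libraries 1 to 5, and 24.2, 14.3, 98.5, 66.7 and 3.7% in the *Fezf2−ve* libraries. Both types covered nearly the whole scale. Means were 45.4% ± 34.9 (SD, n = 5) and 41.5% ± 39.8 (SD, n = 5), a difference of 3.93 percentage points with no support beyond the spread (paired shares, two-sided exact permutation test, p = 0.938). Without animal 1, 2 or 5 the difference turned to -10.1, -2.23 and -0.409 percentage points. Pooled reads also gave the opposite order, 68.3% for *Fezf2+ve* and 88.9% for *Fezf2−ve* IT-PNs, and *Fezf2−ve* library 3 supplied 537 of the 613 *Fezf2−ve* reads.

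In the kinase cascade, *Camk1d* was higher in the *Fezf2−ve* library of every animal and *Camk4* in the *Fezf2+ve* library of most. *Camk1d*, a CaMKI isoform activated by CaMKK (ENSMUSG00000039145, minus strand of chromosome 2, 5293457 to 5714515), gave 4, 6, 4, 8 and 7 reads in *Fezf2+ve* libraries 1 to 5 against 9, 10, 16, 126 and 16 in *Fezf2−ve* libraries 1 to 5. In reads, all *Fezf2−ve* libraries exceeded all *Fezf2+ve* libraries. After normalization *Fezf2+ve* library 4, at a level of 6.57, lay above 4 *Fezf2−ve* libraries, so the levels overlapped. The *Camk1d* level averaged 5.46 ± 0.67 (SD, n = 5) for the *Fezf2+ve* type against 6.94 ± 1.71 (SD, n = 5) for the *Fezf2−ve* type. A level higher in the *Fezf2−ve* library of all 5 animals was found in 2.42% of the genes tested.

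The log2 fold change of *Camk1d* was -1.48 (SE 1.01, unadjusted p = 0.157, adjusted p = 0.998, edgeR quasi-likelihood test with Benjamini-Hochberg adjustment). *Fezf2−ve* library 4 held 61.2% of its reads, and without animal 4 the log2 fold change was -1.07. Without the block it was -2.41, which was not called either (adjusted p = 0.247, edgeR quasi-likelihood test with Benjamini-Hochberg adjustment, within a range of 0.247 to 1.0 over all alternatives). All microglial markers had the same direction, but *Fezf2−ve* library 4 had the lowest microglial sum of its type, 3010 CPM, and the highest astrocyte sum, 6190 CPM against 27.8 to 406 CPM in the other *Fezf2−ve* libraries. The part of either in the *Camk1d* value was not tested.

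*Camk4*, the gene of the nuclear kinase CaMKIV, gave 1, 5, 8, 4 and 25 reads in *Fezf2+ve* libraries 1 to 5 against 1, 1, 23, 2 and 1 in *Fezf2−ve* libraries 1 to 5. *Fezf2+ve* library 5 and *Fezf2−ve* library 3 were high, which left the types overlapping, although the *Fezf2+ve* level was higher in 4 of 5 animals. The log2 fold change of 1.43 (SE 1.20) was not called (adjusted p = 0.998, edgeR quasi-likelihood test with Benjamini-Hochberg adjustment), and was 0.57 without animal 5 and 2.15 without animal 3. *Camkk2*, the gene of the upstream kinase, gave 1, 0, 6, 1 and 2 reads in *Fezf2+ve* libraries 1 to 5 against 1, 2, 1, 1 and 1 in *Fezf2−ve* libraries 1 to 5. Apart from *Fezf2+ve* library 3, no library exceeded 2 reads, and the log2 fold change was 0.59 (SE 1.42).

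**Figure D3:**
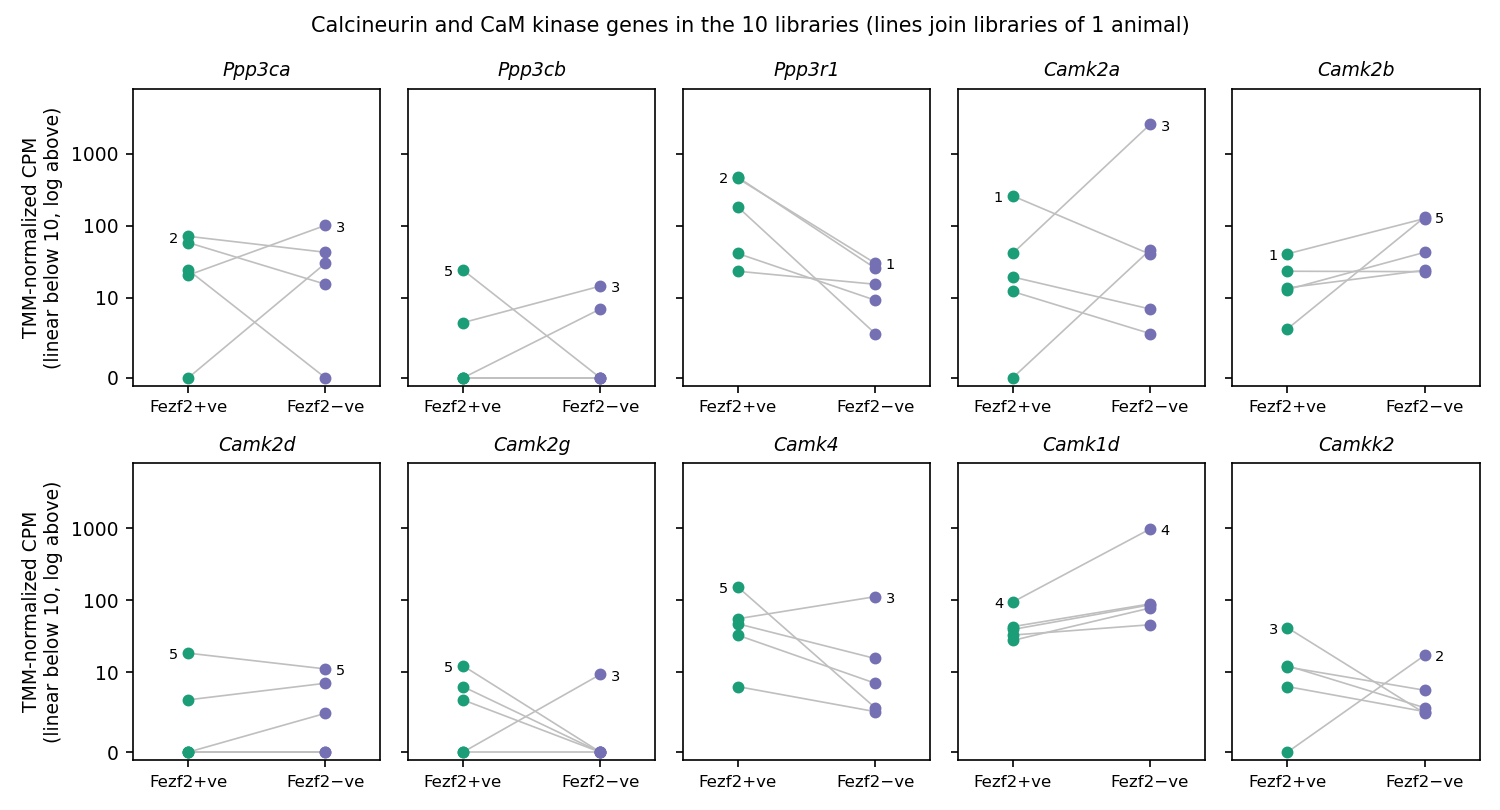
TMM-normalized CPM of the 10 genes (vertical axis, linear below 10 and logarithmic above) in *Fezf2+ve* and *Fezf2−ve* libraries, with lines joining both libraries of an animal and the animal of the highest library numbered. *Ppp3r1* was lower on the right in 5 of 5 animals and *Camk1d* higher in 5 of 5, while *Camk2a* in *Fezf2−ve* library 3 stood far above all other values.

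Of the 9 members tested, 5 had a positive and 4 a negative log2 fold change, with a median of 0.11 against -0.16 over all genes tested. For 4 of them, *Ppp3r1*, *Camk2b*, *Camk4* and *Camk1d*, the log2 fold change was larger than its SE. No member had types whose levels did not overlap, a pattern found with the *Fezf2+ve* type higher in 0.513% and with the *Fezf2−ve* type higher in 0.945% of the genes tested. These counts describe the 9 genes and support no direction. Each of the 9 had 10 CPM or more in at least 1 library of either type.

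**Figure D4:**
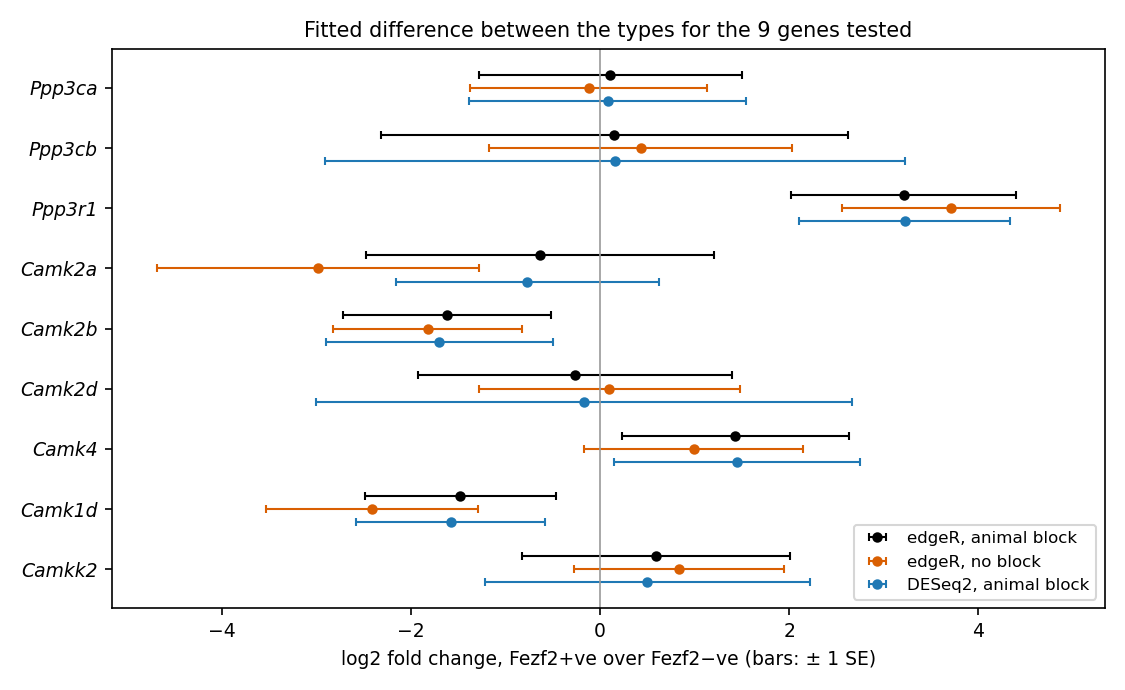
Log2 fold change of *Fezf2+ve* over *Fezf2−ve* (horizontal axis, bars ± 1 SE) for the 9 genes tested, by edgeR with the animal block, edgeR without it and DESeq2 with it. *Ppp3r1* lay at 3.21, 3.71 and 3.22, and the *Camk2a* value moved from -0.63 with the block to -2.98 without it.

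The order of the members by level depended on the scale. Without length scaling, which the authors hold unnecessary for their libraries of 3′ fragments, the median over the 10 libraries was 61.7 CPM for *Camk1d*, 30.1 for *Camk2a*, 28.1 for *Ppp3r1*, 27.5 for *Ppp3ca*, 24.1 for *Camk4* and 23.9 CPM for *Camk2b*. *Camkk2* had 7.97 and *Camk2d* 2.43 CPM, and *Ppp3cb* and *Camk2g* had a median of 0. Scaled by exon length, the order began with *Ppp3r1* at 8.72 CPM per kb, *Camk1d* at 8.31, *Camk4* at 7.39 and *Camk2a* at 4.03 CPM per kb. Neither type had this order. Per kb of exon the *Fezf2+ve* medians began with *Ppp3r1* at 56.9, *Camk4* at 14.4 and *Camk1d* at 5.28 CPM. The *Fezf2−ve* medians began with *Camk1d* at 11.6, *Camk2a* at 5.43 and *Ppp3r1* at 4.8 CPM. Scaled by gene span, introns included, the order over the 10 libraries was another. It began with *Ppp3r1* at 0.684 CPM per kb, *Camk2a* at 0.481, *Camk2b* at 0.247 and *Camkk2* at 0.165. The paper reports high rates of mapping to introns, which exon length leaves out.

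Beyond the 10 genes, 38 genes of the pathway were read as lists, and 22 of them passed the filter. By the edgeR quasi-likelihood test with the block and Benjamini-Hochberg adjustment 0 of the 22 were called in either direction, and 1 had an unadjusted p under 0.05 in each direction, where 3.89% of all genes tested had one. DESeq2 with the block gave an adjusted p to 3 of the 22 and called *Akap5*. Over all genes it called 98, which is 1.32% of the 7409 tested, but only 1664 of these were given an adjusted p. EdgeR without the block called *Eef2k* (3.77% of all genes), also the gene lower in *Fezf2+ve* at a p under 0.05. *Eef2k* passed the filter through the *Fezf2−ve* type alone, which limits what its p can show. Counts this small do not set the lists apart from all genes. Positive log2 fold changes were found for 13 and negative for 9, with a median of 0.41 against -0.16 over all genes tested. Genes with 3 reads or fewer in only 1 type were also set to their bound or to the ratio of their reads. *Ppp3cc* and *Pcp4*, this low in both types, kept their fitted values. This left the list median at 0.41 and gave -0.13 over all genes.

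The anchoring protein of calcineurin gave the only levels in these lists that separated the types. *Akap5* encodes a scaffold that holds calcineurin and protein kinases at the postsynaptic membrane (ENSMUSG00000021057, plus strand of chromosome 12, 76324891 to 76334153), and no annotated gene overlaps it. It drew 269, 165, 384, 91 and 237 reads in *Fezf2+ve* libraries 1 to 5, against 55, 34, 109, 21 and 8 in their *Fezf2−ve* libraries. *Fezf2+ve* libraries lay at 1070 to 2650 CPM after normalization and *Fezf2−ve* libraries at 44.4 to 530 CPM, without overlap. Separation in this direction was seen in 0.513% of the genes tested, 38 in number. No single library carried the value, since the highest held 28% of the reads.

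*Akap5* had a log2 fold change of 2.92 (SE 1.13, unadjusted p = 0.019, adjusted p = 0.998, edgeR quasi-likelihood test with Benjamini-Hochberg adjustment). It was higher in *Fezf2+ve* in 5 of 5 animals, and the log2 fold change ranged from 2.37 to 3.17 when animals were omitted singly. DESeq2 with the block called it (adjusted p = 0.0581, Benjamini-Hochberg), while edgeR without the block did not (adjusted p = 0.201, Benjamini-Hochberg). Its adjusted p over all alternatives ran from 0.0581 to 1.0 by edgeR or DESeq2 with Benjamini-Hochberg adjustment. Neuronal markers were also higher in 4 of the 5 *Fezf2+ve* libraries than in any *Fezf2−ve* library. Markers of excitatory neurons had 17 *Fezf2+ve* and 28 *Fezf2−ve* reads, 22 of the latter in library 3. The part of either in the *Akap5* value was not tested.

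Of the other calcineurin subunits and regulators, 4 of 7 genes were tested. Their median log2 fold change was 0.50, or 1.21 with *Rcan1* and *Cabin1* at the ratio of their reads and *Ppp3cc* at its fitted value. Either value rests on *Ppp3cc*, with 2 and 3 reads (log2 fold change -0.48, or 0.05 without animal 4), and in part on *Cabin1*, with 11 of its 12 *Fezf2+ve* reads in library 5 against 2 *Fezf2−ve* reads, a ratio of 7.44 that was 0.821 without that library, and 12.8 and 11.6 without *Fezf2−ve* library 2 or 5. *Rcan1*, an inhibitor of calcineurin that calcineurin itself induces, had the smallest p among those lower in *Fezf2+ve* IT-PNs. It had 3 *Fezf2+ve* and 13 *Fezf2−ve* reads, a scaled ratio of 0.286 with an exact 95% counting interval of 0.0523 to 1.04 (0.124 without *Fezf2+ve* library 2 and 0.523 without *Fezf2−ve* library 4), and unadjusted p = 0.279 (edgeR quasi-likelihood test). *Ppp3r2*, the testis form of calcineurin B, and *Rcan3* were at 0 in all libraries.

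Of the genes for calmodulin itself, *Calm2* gave 0, 5, 5, 2 and 2 reads in *Fezf2+ve* libraries 1 to 5 against 21, 4, 20, 2 and 3 in *Fezf2−ve* libraries 1 to 5, with a log2 fold change of -1.12 (SE 1.27, -1.58 to -0.44 when animals were omitted singly). *Calm3* had 6 *Fezf2+ve* and 4 *Fezf2−ve* reads, all 4 of them in library 1, with a log2 fold change of 1.50 (SE 1.80). *Calm2* and *Calm3* thus had opposite directions.

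CaMKII inhibitors and calmodulin-binding buffers had positive log2 fold changes in 4 of 4 tested genes, against 45.7% of all genes tested, with a median of 1.09. This count is fragile. *Camk2n1* had 9 *Fezf2+ve* and 16 *Fezf2−ve* reads, and its log2 fold change of 0.36 (SE 1.36) turned to -0.84 without the block, to -0.50 and -0.35 without animal 1 or 5, to -0.29 downsampled and to -0.03 with a prior count of 2, while *Pcp4* had 3 reads in all. Of the 4 genes 0 were called by the edgeR quasi-likelihood test, 0 had an unadjusted p under 0.05, and 0 were called by edgeR without the block. DESeq2 gave 0 of the 4 an adjusted p. *Camk2n2*, an inhibitor of CaMKII, gave 18, 2, 1, 1 and 3 reads in *Fezf2+ve* libraries 1 to 5 against 2, 0, 1, 0 and 0 in *Fezf2−ve* libraries 1 to 5. *Fezf2+ve* library 1 held 64.3% of its reads, and the remaining libraries overlapped at 0 to 3 reads. The ratio of its scaled reads was 10.3, with an exact 95% counting interval of 3.15 to 53.5, and it was 3.54 without *Fezf2+ve* library 1 and 23.6 without *Fezf2−ve* library 1 (unadjusted p = 0.0532, edgeR quasi-likelihood test). *Nrgn*, which is also a marker of excitatory neurons, did not pass the filter.

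In the list of other CaM kinases and relatives, 4 of 8 genes were tested, 1 with a positive and 3 with a negative log2 fold change. *Eef2k*, a calmodulin-dependent kinase that slows translation by acting on elongation factor eEF2, was at 0 reads in each of the *Fezf2+ve* libraries and at 16, 0, 5, 1 and 21 reads in the *Fezf2−ve* libraries. *Fezf2−ve* library 2 was at 0 as well, so the types met at that value. Against a floor of 3 reads over the 5 *Fezf2+ve* libraries, *Eef2k* was lower in the *Fezf2+ve* type by at least 11.6-fold, or 7.55-fold without *Fezf2−ve* library 5, which held 48.8% of its reads. The gene reached 10 CPM in 0 *Fezf2+ve* and 3 *Fezf2−ve* libraries and so passed the filter through the *Fezf2−ve* type alone, which limits what its p can show. Its unadjusted p was 0.0121 (edgeR quasi-likelihood test with the block), and it was called without the block (adjusted p = 0.0931, Benjamini-Hochberg, edgeR, within a range of 0.0931 to 1.0 over all alternatives). Microglial markers were high in all *Fezf2−ve* libraries, *Fezf2−ve* library 2 included, and precursor markers were highest of the type in library 5, and the part of either in this value was not tested. *Dclk1*, a kinase related to the CaM kinases, had 17 reads in each type and a log2 fold change of 1.22 (SE 1.65), which ranged from 0.29 without animal 5 to 2.43 without animal 1. The list median was -1.88, or -2.09 with the sparse genes at their bound or ratio. It lies between *Camk1*, at -3.20 with 1 *Fezf2+ve* and 14 *Fezf2−ve* reads and 10 CPM in 0 *Fezf2+ve* libraries, and *Dapk1*, at -0.57 with 2 and 4 reads. The *Dapk1* ratio of 0.62 went to 0 without *Fezf2+ve* library 4 and to 0.932 and 1.05 without *Fezf2−ve* library 3 or 4, and the *Camk1* ratio of 0.0886 to 0 without *Fezf2+ve* library 5, so the median carries little weight.

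**Figure D5:**
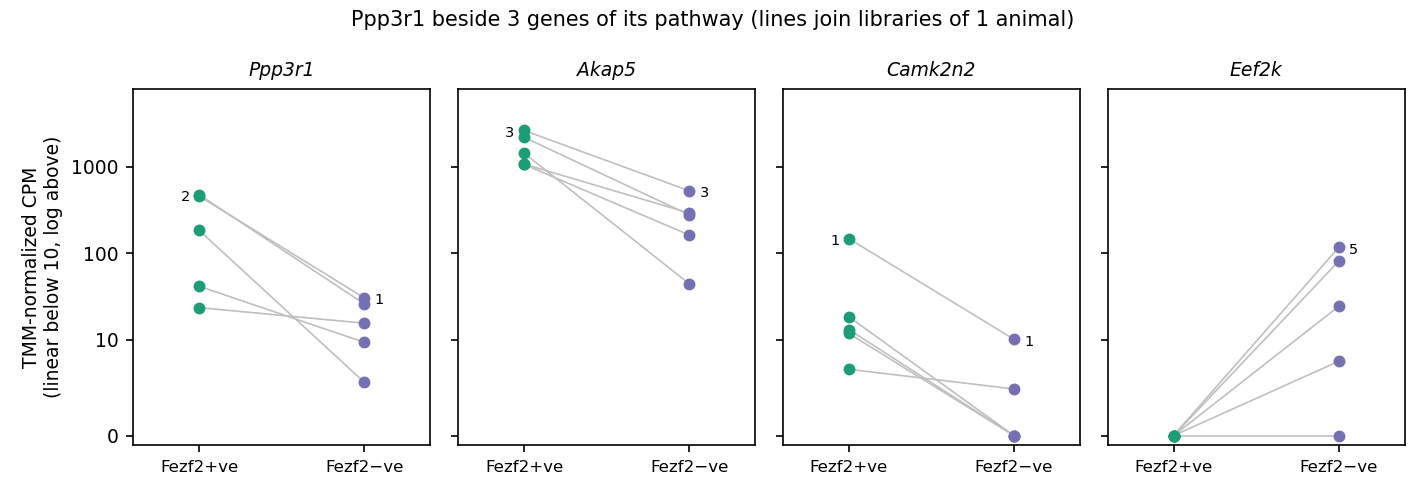
TMM-normalized CPM (vertical axis, linear below 10 and logarithmic above) of *Ppp3r1*, *Akap5*, *Camk2n2* and *Eef2k* in *Fezf2+ve* and *Fezf2−ve* libraries, with lines joining both libraries of an animal and the animal of the highest library numbered. Only for *Akap5* did all *Fezf2+ve* libraries lie above all *Fezf2−ve* libraries, and *Eef2k* was at 0 in each *Fezf2+ve* library.

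Transcription factors and coactivators downstream of these enzymes were sparse, and 4 of 10 were tested, with a median log2 fold change of 0.68. That median lies between *Crtc1* (0.69) and *Crtc3* (0.67), whose reads came mostly from single libraries, 12 of 17 in *Fezf2−ve* library 1 and 57 of 65 in *Fezf2+ve* library 3. *Crtc1* turned to -0.53 without the block and -0.01 downsampled, and was 0.05 and 0.04 without animal 3 or 4. *Crtc3* turned to -0.23 by DESeq2 with the block, but was 3.24 by edgeR without the block and 1.99 without animal 4. *Creb1*, a target of CaMKIV, had 7 *Fezf2+ve* and 4 *Fezf2−ve* reads (log2 fold change 1.37, SE 1.59). *Nfatc3*, a substrate of calcineurin, had 4 and 10 reads (log2 fold change -0.79, SE 1.73), a value that turned to 0.06 without animal 2. The genes *Nfatc4* and *Atf1* were at 0 in all libraries.

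The phosphatase-1 arm, which lies downstream of calcineurin through inhibitor proteins, had 3 of 5 genes tested and a median log2 fold change of -0.08, the value of *Ppp1ca* (6 and 9 reads), which ranged from -1.05 to 0.59 when animals were omitted singly and was 0.08 by DESeq2 with the block. *Ppp1cb*, a catalytic subunit, had 231 *Fezf2+ve* and 4 *Fezf2−ve* reads, 97.0% of all in *Fezf2+ve* library 5, and reached 10 CPM in 2 *Fezf2+ve* and 0 *Fezf2−ve* libraries, so it passed the filter through that type alone. *Ppp1r1b*, the gene of the phosphatase inhibitor DARPP-32, gave 7, 1, 0, 1 and 3 reads in *Fezf2+ve* libraries 1 to 5 against 3, 372, 1, 0 and 159 in *Fezf2−ve* libraries 1 to 5. *1700003D09Rik*, which overlaps *Ppp1r1b*, had the same reads in every library, so they cannot be assigned to either gene. The values came from 1 library for *Ppp1cb* and 2 for *Ppp1r1b*, and the log2 fold changes were 2.70 (SE 2.06) and -2.87 (SE 2.66). Without the block they were 5.68 and -5.39. Without animal 4 or 5 *Ppp1cb* did not pass the filter, and without animal 1, 2 or 3 it ranged from 2.25 to 4.09. *Ppp1r1b* was -0.63 and -0.88 without animal 2 or 5 and reached -4.83 without animal 1.

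The 3 tested genes most like *Ppp3r1* over the 10 libraries were *Ermard* (Pearson r = 0.91, Spearman rho = 0.768), *Napg* (r = 0.907, rho = 0.813) and *Plekha5* (r = 0.905, rho = 0.879), on TMM-normalized log2(CPM + 1). These are descriptions, since the points share libraries, depth and the difference between the types. *Ermard*, with 11 reads, and *Napg*, with 32, were found only in *Fezf2+ve* libraries, and 84.4% of the *Napg* reads were in *Fezf2+ve* library 2. *Plekha5* had 30 *Fezf2+ve* and 11 *Fezf2−ve* reads.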

How the data were processed

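RNA-seq reads were counted in 10 libraries, paired by animal. According to the methods and the submitters' processing notes, the authors used TopHat2 2.1.1 for mapping of trimmed reads to mm10 and bedtools 2.26.0 multiCov for counting on RefFlat genes, and deposited these counts unnormalized. multiCov counts a read on each gene it overlaps, and strand use is not stated, so overlapping genes are uncertain. The authors' deposited table of their DESeq2 comparison, with mean scores, log2 fold changes, a Wald score and p-values, was not used here.

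A filter of 10 CPM or more in 2 libraries kept 7409 of 24453 genes. TMM normalization was followed by the edgeR 4.0.16 quasi-likelihood test (R 4.3.3), blocked by animal, with Benjamini-Hochberg adjustment and calls at 0.1 or less. Standard errors were calculated back from the F statistic. Both libraries of a number come from 1 animal by the labels, and their deviations from the type means had a mean correlation of 0.029 (-0.027 to 0.097). Marker sums are TMM-normalized. Shares were compared by exact permutation of the paired values. DESeq2 1.42.0 gave an adjusted p to 1664 of the 7409 genes. Positions and exon lengths came from GENCODE annotation of GRCm38 (mm10).

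Of each pathway list, the gene with the smallest p in each direction and each gene with an unadjusted p under 0.05 were named, and other genes were named after their values were seen. The members and lists were chosen with earlier results of these data known. The tests were checked on simulated data at a low dispersion and at one near that of these libraries, each the same for all genes and with no animal effect. Bounds and ratios were also calculated with single libraries left out, chosen after seeing the data. Python 3.11.15 was used for the remaining steps.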

Additional observations from a re-analysis of the deposited data

Results flagged for a closer look

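In groups of 5 libraries, 1 value lay far from the other 4 in 14 of 66 groups of levels and shares checked. The nominal rate of about 1 in 20 does not apply to counts this sparse. Where 4 libraries are at 0 reads, any reads in the other stand apart, as for *Calm3* and *Crtc1* below. The number of flags can therefore not be compared with chance. On the scale of TMM-normalized log2(CPM + 1), *Camk1d* stood high in *Fezf2−ve* library 4, at 9.93 with 126 reads. *Ppp3ca* and *Calm2* stood low in *Fezf2+ve* library 1, each at 0.0 with 0 reads. *Creb1* stood low in *Fezf2+ve* library 4, at 0.0 with 0 reads. *Camk2g* stood high in *Fezf2−ve* library 3, at 3.42 with 2 reads. *Calm3* and *Crtc1* stood high in *Fezf2−ve* library 1, at 4.41 with 4 reads and at 5.95 with 12 reads. *Ppp3cc* and *Pcp4* stood high in *Fezf2+ve* library 2, each at 3.82 with 2 reads, and *Pcp4* in *Fezf2−ve* library 2, at 3.27 with 1 read. *Camk1* stood high in *Fezf2+ve* library 5, at 2.83 with 1 read, and low in *Fezf2−ve* library 4, at 0.0 with 0 reads. *Dapk1* stood high in *Fezf2+ve* library 4, at 4.62 with 2 reads, and *Gap43* low in *Fezf2+ve* library 1, at 0.0 with 0 reads.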

How the results depend on the processing

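The counts of calls moved with the tool and the replicate block. Against 0 of the tested genes and 0 of the 10 members with the block in edgeR, the fit with no replicate block called 279 genes and 1 member. DESeq2 with the block called 98 genes and 1 member, and with its normal prior 88 genes and 1 member, which was *Ppp3r1* each time. All other alternatives for these counts gave 0 and 0, among them animals omitted singly (0 to 0), other scalings, filters, depth and prior counts, a threshold of 0.05, and the legacy quasi-likelihood method, chosen after seeing the data. The causes of these differences were not tested.

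The share of *Ppp3r1* among calcineurin reads was 15.0 to 33.7 percentage points higher in *Fezf2+ve* IT-PNs when animals were omitted singly. The *Camk2a* share difference reversed when reads were pooled (-20.7 percentage points) and ranged from -10.1 to 21.6 when animals were omitted singly. Unpaired, with no replicate block, both differences were as in the paired comparison, 22.7 and 3.93, with exact permutation p = 0.286 and 0.849.

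Of 137 values of member log2 fold changes under the alternatives, 12 reversed. *Ppp3ca* gave -0.12 with no replicate block, -0.01 without a filter, -0.06 downsampled and -0.77 to 0.87 when animals were omitted singly. *Ppp3cb* gave -1.01 downsampled and -1.45 to 1.03 when animals were omitted singly. *Camk2a* ranged from -2.01 to 0.60 and *Camk2d*, at 0.10 with no replicate block, from -0.34 to 0.21 when animals were omitted singly. *Nfatc3* ranged from -1.51 to 0.06. *Camk2n1* gave -0.84 with no replicate block, -0.29 downsampled, -0.03 with a prior count of 2 and -0.50 to 1.42 when animals were omitted singly. *Crtc1* gave -0.53 with no replicate block, -0.01 downsampled and 0.04 to 0.83 when animals were omitted singly. *Crtc3* gave -0.23 by DESeq2 with the block, 3.24 with no replicate block and 0.46 to 1.99 when animals were omitted singly. *Ppp3cc* ranged from -0.64 to 0.05 when animals were omitted singly. *Ppp1ca* gave 0.08 by DESeq2 with the block and -1.05 to 0.59 when animals were omitted singly. *Dclk1* ranged from 0.29 to 2.43, *Ppp1cb* from 2.25 to 4.09 and *Ppp1r1b* from -4.83 to -0.63 when animals were omitted singly, and without the block the last 2 gave 5.68 and -5.39. The bound for *Eef2k* fell from 11.6 to 7.55 without *Fezf2−ve* library 5, left out after seeing the data. *Ppp3r1* kept its direction, with 2.72 to 3.71 over the animals left out. Members under the filter of an alternative gave no value there, as for *Camk2d* without animal 2 or 5 and *Camkk2* without animal 2 or 3.

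With 89138 to 217738 gene reads per library, differences in genes with a few reads were not detectable.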
